A study of Homo sapiens with 9 samples.

Results

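The genes described here are the ZNF zinc finger genes that A549 cells expressed above a set level. Their symbols are ZNF followed by a number and at most 1 letter, and their mean signal over the 3 si-Ctrl arrays was 200 or more on the linear scale. Of 19775 genes measured, 466 had such a symbol and 230 of these reached the level. Each gene was represented by the probe set annotated to it alone with the highest mean over the 9 arrays. The genes were thus chosen by their control signals, which are given below as a description without a test. Just outside the level lay ZNF780A with a mean si-Ctrl signal of 195.6, ZNF268 with 198.3 and ZNF239 with 199.1. Just inside it lay ZNF19 with 201.7, ZNF271P with 203.2 and ZNF224 with 203.8.

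RNA of untreated A549 cells, derived from a human lung adenocarcinoma and kept in medium with serum, was hybridised to 9 Affymetrix arrays. In 3 samples (si-Med23) the cells carried an RNA interference oligo against MED23, in 3 (si-Elk1) an oligo against ELK1 and in 3 (si-Ctrl) a control oligo. The oligos A, B and C of each knockdown differ, and the labels describe the cells that carry them as different lines, so oligos add to the spread within a knockdown. The labels do not say that the control replicates came from separate cultures, so p-values measure a spread between samples that may be technical. MED23 belongs to the tail of Mediator, a large complex through which transcription factors reach RNA polymerase II. ELK1 is an ETS transcription factor downstream of ERK that can contact MED23.

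Most ZNF proteins bind DNA through tandem C2H2 fingers, each folded around a zinc ion. Many carry a KRAB domain that recruits TRIM28 and, with it, the histone methyltransferase SETDB1 and HP1 proteins, which silence transposable elements and other loci. Others lack KRAB and act in transcription, RNA processing, mitosis or ribosome assembly. Many ZNF genes lie in tandem clusters on chromosome 19. In these data 83 of the 230 (36.1%) lay on chromosome 19, 19 on chromosome 16 and 17 on chromosome 7, by the RefSeq gene table of GRCh38.p14. RefSeq lists 227 of them as protein coding and 3 as pseudogenes.

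ELK1 binds the ETS core CCGGAAG, and this core was searched for on both strands (CTTCCGG on the other) in RefSeq promoter windows of GRCh38.p14, from 250 bases before to 50 after each gene's start. A longer form, which contains the core, added a T after it (an A before it on the other strand). A window was found for 194 of the 230 expressed ZNF genes, and 84 of these (43.3%) held the core. The share was 40.1% among 187 dimmer ZNF genes, 23.8% among 7935 other genes at the same control level and 12.2% among all 27305 genes with a window. Counted by window, 35.2% of 261 windows of the expressed ZNF genes and 10.3% of all 35116 windows held it. The longer form was in 24.7% of the expressed ZNF genes, 14.4% of the dimmer ones, 10.8% of other genes at that level and 4.95% of all genes with a window. A match describes the letters and is not a binding site. The 250 bases before the start are shown for 5 genes to let the core be seen beside the values below, with the core in capitals. These 5 are examples and not a sample of the genes that changed. ZNF367, ZNF451, ZNF503, ZNF513 and ZNF529, also called in si-Elk1 below, had windows without the core. ZNF638 and ZNF267 fell in si-Med23, ZNF267 also in si-Elk1, ZNF580 and ZNF740 rose in si-Med23, and ZNF770 had the largest fall and no core.
ZNF638, chr2:71331532-71331781, plus strand: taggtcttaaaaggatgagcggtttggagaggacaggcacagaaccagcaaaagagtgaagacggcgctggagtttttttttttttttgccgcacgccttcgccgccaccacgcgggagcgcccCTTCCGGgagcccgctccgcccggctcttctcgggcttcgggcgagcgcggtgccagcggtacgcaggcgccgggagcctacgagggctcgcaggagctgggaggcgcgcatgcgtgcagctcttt
ZNF267, chr16:31873557-31873806, plus strand: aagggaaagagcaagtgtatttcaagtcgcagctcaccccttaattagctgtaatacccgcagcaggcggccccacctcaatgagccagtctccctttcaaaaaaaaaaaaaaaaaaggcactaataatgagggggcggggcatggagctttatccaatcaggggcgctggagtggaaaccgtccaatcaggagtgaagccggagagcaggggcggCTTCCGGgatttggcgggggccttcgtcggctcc
ZNF580, chr19:55640752-55641001, plus strand: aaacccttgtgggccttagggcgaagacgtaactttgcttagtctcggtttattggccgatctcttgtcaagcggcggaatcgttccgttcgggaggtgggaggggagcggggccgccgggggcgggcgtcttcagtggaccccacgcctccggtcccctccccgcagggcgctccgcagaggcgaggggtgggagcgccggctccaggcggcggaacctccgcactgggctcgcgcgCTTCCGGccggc
ZNF740, chr12:53180472-53180721, plus strand: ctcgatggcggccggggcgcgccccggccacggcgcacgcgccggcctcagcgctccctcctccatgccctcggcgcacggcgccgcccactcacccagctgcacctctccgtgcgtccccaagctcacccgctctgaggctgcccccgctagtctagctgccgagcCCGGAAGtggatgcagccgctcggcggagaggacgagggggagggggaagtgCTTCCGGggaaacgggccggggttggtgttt
ZNF770, chr15:34988288-34988537, minus strand: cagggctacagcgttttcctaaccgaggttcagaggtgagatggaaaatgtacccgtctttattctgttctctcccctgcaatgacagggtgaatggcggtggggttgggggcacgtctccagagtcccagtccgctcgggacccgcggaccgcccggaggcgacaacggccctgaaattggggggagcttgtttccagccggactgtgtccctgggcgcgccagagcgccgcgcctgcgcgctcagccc
The core started 126 bases before the start of ZNF638, 34 before that of ZNF267 and 12 before the start shown for ZNF580. RefSeq has 3 windows for ZNF580, and neither of the other 2 held the core. ZNF740 held it on both strands, at 83 and 31 bases before the start.

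The targeted transcripts were low in the samples labelled for them. MED23 read log2 signals of 6.79, 6.19 and 7.06 in si-Med23 (oligos A, B and C), against 9.27, 9.05 and 9.08 in si-Ctrl, which is -2.46 ± 0.27 as a log2 fold change (SE, 3 arrays a group, limma adjusted p = 0.00184). ELK1 read 7.07, 7.15 and 7.83 with the si-Elk1 oligos, against 9.36, 9.61 and 9.29 in si-Ctrl (-2.07 ± 0.26, adjusted p = 0.00684). Median signals of the arrays lay between 64.9 and 88.2, and precision is limited by the number of arrays. Oligo C of si-Elk1 stood apart, with a mean correlation of 0.959 with its own group against 0.969 for oligos A and B, and with MED23 at 8.18. The summed signal of 5 epithelial markers was 65609 to 93389 in si-Med23, 53938 to 66840 in si-Elk1 and 50031 to 55121 in si-Ctrl. KRT8, KRT18, KRT19 and CDH1 were higher in si-Med23 at a limma adjusted p under 0.05, and EPCAM was not. In si-Elk1 CDH1 alone was (1.04), and KRT19 had a change of -0.74. Of markers of other cells, the leukocyte gene PTPRC and the endothelial genes VWF and CDH5 lay below the level of the filter on dim probe sets (log2 6.05) on every array, and none was listed at 0. PECAM1, also an endothelial gene, lay above that level on every array. The 3 endothelial markers summed to 172 to 278 in si-Med23, 157 to 303 in si-Elk1 and 180 to 257 in si-Ctrl. The 4 haematopoietic markers measured summed to 649 to 1163 in si-Med23, 973 to 1165 in si-Elk1 and 318 to 617 in si-Ctrl. Those of the 2 neuronal markers summed to 804 to 1629 in si-Med23, 3687 to 4005 in si-Elk1 and 971 to 1294 in si-Ctrl. The part of these shifts in the results below was not tested. All arrays had been brought to a trimmed mean of 500.1, so directions are relative to it. Scaling on 27 probe sets for spiked poly-A transcripts would shift log2 fold changes by -1.40 in si-Med23 and -0.63 in si-Elk1, scaling on 18 hybridisation controls by -0.50 and -0.18, and centring on array medians by 0.23 and -0.14.

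The mean si-Ctrl signal of the 230 genes spanned 201.7 to 9897, with a median of 452.9. Signals of different probe sets are not levels that can be compared, so the brightest genes are named only to show what the signal rests on. ZNF207 (BuGZ), which loads BUB3 on kinetochores, had 13.27, 13.28 and 13.03 in si-Med23, 13.05, 13.09 and 13.02 in si-Elk1 and 13.27, 13.33 and 13.21 in si-Ctrl, all on the log2 scale as are the signals that follow. ZNF706 gave 12.61, 12.75 and 12.67 in si-Med23, 12.68, 12.70 and 12.89 in si-Elk1 and 12.65, 12.75 and 12.64 in si-Ctrl. Neither gene passed in any comparison, although the si-Elk1 arrays of ZNF207 all lay just below the controls. ZNF146 (OZF), a protein made of zinc fingers alone, read 10.67, 10.62 and 10.65 in si-Med23, 11.52, 11.58 and 10.76 in si-Elk1 and 12.19, 11.74 and 12.19 in si-Ctrl, and fell in si-Med23 (-1.40 ± 0.23, adjusted p = 0.00340), with no overlap between si-Med23 and si-Ctrl. ZNF664 and ZNF281 also fell (-0.83 ± 0.19 and -0.94 ± 0.23), as did ZNF639 (-0.64 ± 0.22), which lost its call when any array but si-Ctrl replicate 2 was left out (highest adjusted p = 0.133). ZNF511, ZNF512 and ZNF217 did not pass, with changes of 0.13, 0.19 and -0.19. ZNF622 was the only one of these 10 brightest genes that rose (0.67 ± 0.18).

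In si-Med23 against si-Ctrl, the expressed ZNF genes that passed were mostly lower on the deposited scale. This split turned with centring on array medians (64 higher and 51 lower). All genes tested shifted too with that centring, to 37.8% higher and 13.3% lower, beside 27.8% and 22.2% of the ZNF genes. On the deposited scale 66 of the 230 (28.7%) fell, 26 (11.3%) rose and 138 did not pass by limma with Benjamini-Hochberg adjustment over all 12616 genes tested. The shares of all genes tested were 19.5% lower and 20.3% higher, and among the 9752 genes at the same control level they were 22.7% and 22.9%. The median log2 fold change was -0.05 for the ZNF genes, 0.09 for all genes tested and 0.10 for genes at that level. Changes of at least 2-fold ran to the lower side, with 46 ZNF genes lower (20.0%) and 2 higher (0.870%), beside 11.9% and 2.96% of genes at that level. The control arrays that set the level also stand in this contrast, so a gene whose control signal chanced to be high is favoured and nothing is read from these shares. With the level set instead on the mean of all 9 arrays, 48 of 216 genes fell (22.2%) and 30 rose (13.9%). The si-Med23 and si-Ctrl arrays did not overlap for 129 of the 230 (56.1%), among them 91 of the 92 that passed, beside 57.3% of all genes tested and 65.1% of genes at that level. In bulk RNA, fewer cells holding a transcript and less of it in each cell cannot be told apart. The count of 26 rises was 17 without si-Ctrl replicate 3 or without oligo B of si-Med23, and it was 2 with hybridisation control scaling and 0 with poly-A spike scaling (224 genes at an unadjusted p under 0.05 in limma), where 121 and 223 genes were lower. Of all genes tested, 11.9% rose without that replicate and 14.3% without that oligo. With hybridisation control scaling 3.24% of all genes tested were higher and 41.3% lower, and with poly-A spike scaling 0.174% and 89.8%.

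**Figure D1:**
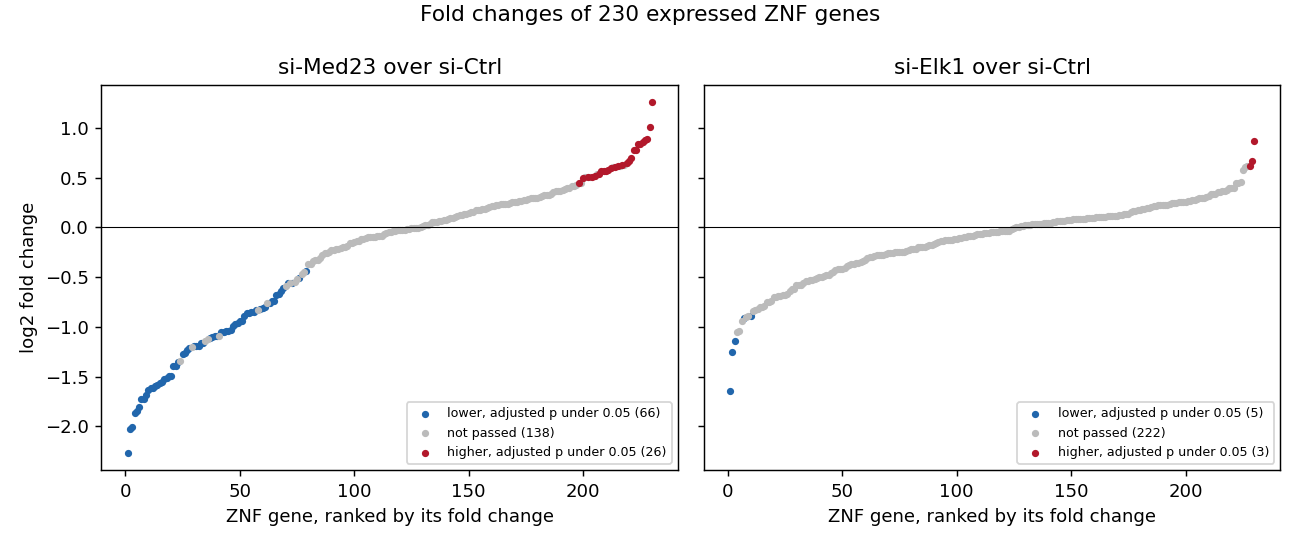
Log2 fold changes (y axis) of the 230 expressed ZNF genes, ranked from lowest to highest along the x axis, for si-Med23 over si-Ctrl (left) and si-Elk1 over si-Ctrl (right), each point a gene coloured by its limma call. In si-Med23 66 genes passed as lower, reaching -2.26, and 26 as higher, reaching 1.25, while 5 and 3 passed in si-Elk1.

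The 10 largest falls in si-Med23 were those of ZNF770, ZNF527, ZNF605, ZNF507, ZNF765, ZNF638, ZNF84, ZNF121, ZNF678 and ZNF665. ZNF770 read 7.99, 7.57 and 8.61 in si-Med23 (oligos A, B and C), 9.62, 9.78 and 8.86 with the si-Elk1 oligos and 10.27, 10.19 and 10.50 in si-Ctrl. All 3 si-Med23 arrays lay below all others, and the log2 fold change was -2.26 ± 0.30 (SE), or 20.8% of the si-Ctrl level (adjusted p = 0.00228). ZNF638 (NP220), a DNA-binding protein that brings the HUSH silencing complex to unintegrated retroviral DNA, read 8.50, 8.14 and 8.0 in si-Med23, 9.81, 9.59 and 8.54 in si-Elk1 and 9.96, 9.69 and 10.39 in si-Ctrl (-1.80 ± 0.33, adjusted p = 0.00502). Its other 4 probe sets above the filter also fell, with changes between -1.25 and -1.93. ZNF507 gave 7.61, 7.66 and 8.33 in si-Med23, 9.39, 9.38 and 8.16 in si-Elk1 and 9.63, 9.68 and 9.88 in si-Ctrl (-1.86 ± 0.34). ZNF765 gave 7.55, 8.06 and 8.19 in si-Med23, 9.09, 9.63 and 8.59 in si-Elk1 and 9.46, 9.80 and 10.06 in si-Ctrl (-1.84 ± 0.29). For ZNF507, oligo C of si-Elk1 lay within the si-Med23 range, while the si-Elk1 and si-Med23 arrays of ZNF765 did not overlap.

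ZNF84, ZNF527, ZNF605, ZNF665, ZNF678 and ZNF765 are KRAB zinc finger genes. ZNF84 gave 6.47, 7.29 and 6.83 in si-Med23, 8.19, 7.31 and 7.44 in si-Elk1 and 8.62, 8.39 and 8.75 in si-Ctrl (-1.72 ± 0.27, adjusted p = 0.00312). ZNF121 gave 8.43, 7.86 and 8.89 in si-Med23, 9.91, 9.55 and 8.41 in si-Elk1 and 10.02, 10.12 and 10.20 in si-Ctrl (-1.72 ± 0.38, adjusted p = 0.00927). Here again si-Elk1 oligo C read as low as the si-Med23 arrays for ZNF121, and the controls lay above both knockdowns. ZNF527 read 5.55, 5.26 and 6.36 in si-Med23, 7.68, 7.94 and 7.05 in si-Elk1 and 7.43, 8.06 and 7.76 in si-Ctrl (-2.03 ± 0.33, adjusted p = 0.00327). ZNF665 read 5.67, 6.93 and 6.42 in si-Med23, 8.43, 7.76 and 8.24 in si-Elk1 and 8.12, 7.81 and 8.0 in si-Ctrl (-1.64 ± 0.31, adjusted p = 0.00521). In both genes the si-Elk1 and si-Ctrl arrays overlapped and only si-Med23 stood lower. ZNF605 had 5.82, 5.69 and 5.79 in si-Med23, 7.40, 7.45 and 5.77 in si-Elk1 and 7.71, 7.47 and 8.13 in si-Ctrl (-2.01 ± 0.41). ZNF678 had 5.25, 6.72 and 6.90 in si-Med23, 7.80, 7.71 and 6.98 in si-Elk1 and 8.28, 7.55 and 8.10 in si-Ctrl (-1.69 ± 0.44). ZNF605 was at or below the filter level on every si-Med23 array, and raising such signals to that level, which was chosen after seeing the data, gave a change of -1.72. The same alternative gave -1.59 for ZNF527, -1.42 for ZNF678 and -1.51 for ZNF665. ZNF678 was no longer called without replicate 1 or 3 of si-Ctrl (highest adjusted p = 0.0525), while the calls of the other 9 held with each array left out in turn.

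The 10 largest rises in si-Med23 were smaller, between 0.70 and 1.25, and all 10 turned negative with poly-A spike scaling. That scaling shifts every gene by -1.40 in this contrast, so any smaller rise turns negative, here and below, whatever the gene. ZNF580 read 11.67, 11.56 and 11.79 in si-Med23, 11.22, 10.88 and 11.15 in si-Elk1 and 10.59, 10.35 and 10.32 in si-Ctrl (1.25 ± 0.14, adjusted p = 0.00184), so the 3 groups did not overlap. ZNF764 read 9.56, 9.15 and 9.27 in si-Med23, 8.53, 8.45 and 8.77 in si-Elk1 and 8.24, 8.51 and 8.21 in si-Ctrl (1.01 ± 0.16). ZNF740 read 9.60, 9.33 and 9.61 in si-Med23, 8.69, 8.39 and 8.81 in si-Elk1 and 8.30, 8.86 and 8.73 in si-Ctrl (0.89 ± 0.18). For ZNF764 and ZNF740 the si-Elk1 and si-Ctrl arrays overlapped and si-Med23 lay above both. ZNF503 (NOLZ1) and ZNF703 are related members of the NET family of transcriptional corepressors, and ZNF703 is amplified in luminal breast cancer. ZNF503 had 11.66, 11.24 and 11.65 in si-Med23, 11.69, 11.66 and 11.70 in si-Elk1 and 10.90, 10.72 and 10.83 in si-Ctrl (0.70 ± 0.14). ZNF703 had 8.99, 9.29 and 9.28 in si-Med23, 9.32, 9.18 and 8.47 in si-Elk1 and 8.61, 8.57 and 8.05 in si-Ctrl (0.77 ± 0.25, adjusted p = 0.0354). Both knockdowns stood above the controls for ZNF503, whereas si-Elk1 overlapped si-Ctrl for ZNF703. ZNF552 (0.88 ± 0.26), ZNF81 (0.86 ± 0.16), ZNF71 (0.84 ± 0.17), ZNF70 (0.83 ± 0.15) and ZNF629 (0.77 ± 0.14) completed the 10. Another probe set of ZNF81 fell, as given below. ZNF703 lost its call without any 1 of the 6 arrays compared (highest adjusted p = 0.120), and ZNF552 without si-Ctrl replicate 2 or 3 or si-Med23 oligo A or C (0.0905).

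**Figure D2:**
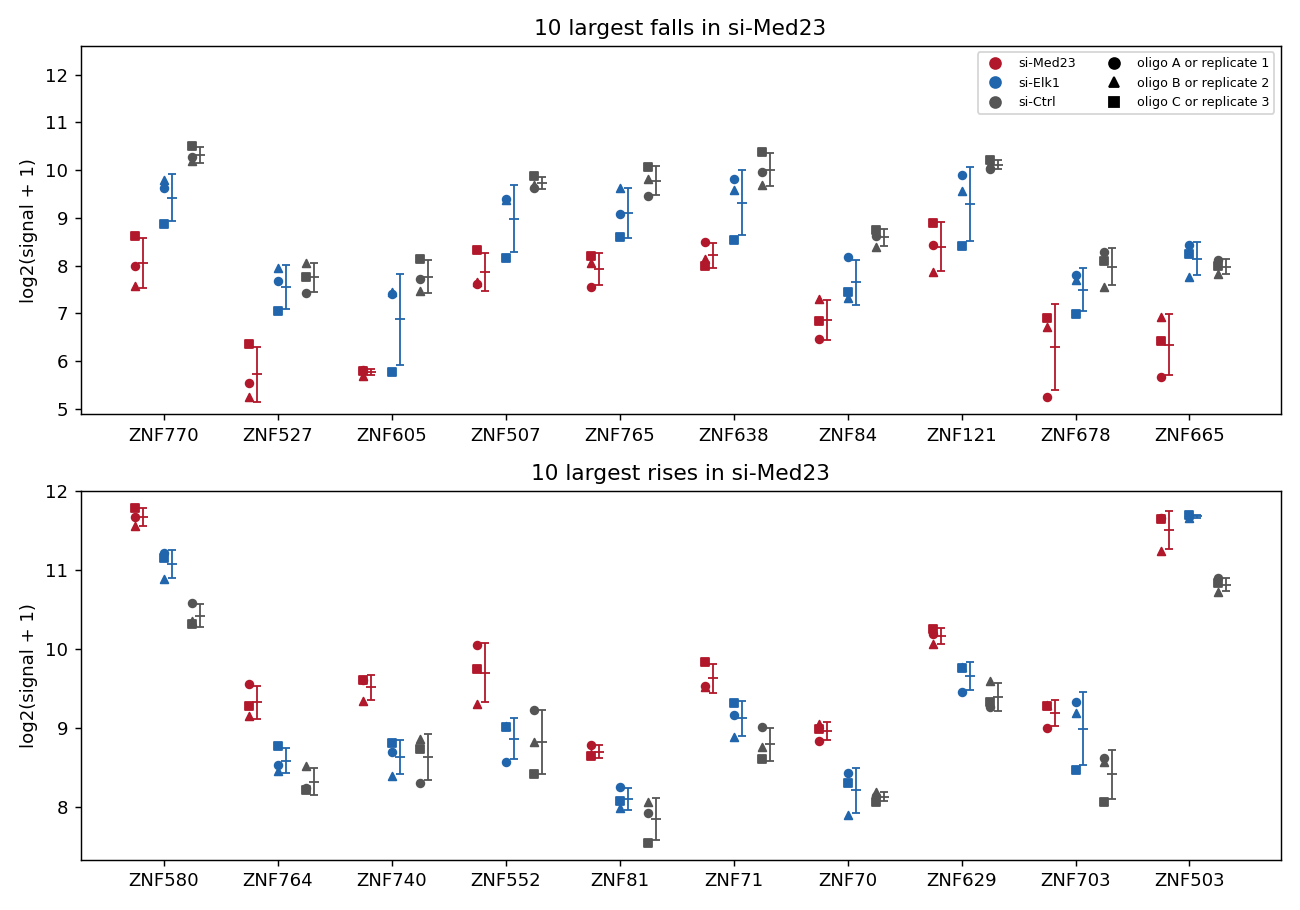
Log2(signal + 1) on each of the 9 arrays for the 10 largest falls (top) and 10 largest rises (bottom) among expressed ZNF genes in si-Med23. Points are arrays of si-Med23 (red), si-Elk1 (blue) and si-Ctrl (grey), marker shapes give the oligo or replicate, and bars are the mean ± SD of 3 arrays; the squares of si-Elk1 mark oligo C, which read 8.16 for ZNF507 and 8.41 for ZNF121.

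A list of 29 ZNF genes with described roles, some of them in silencing, had been made with earlier results known, and 23 of them were expressed. In si-Med23 10 of the 23 fell, 4 rose and 9 did not pass, beside 22.7% lower and 22.9% higher among all genes at the same control level. Not reaching the control level were ZNF76 with a signal of 33.0, ZNF687 with 56.1, ZNF350 with 124, ZNF91 with 84.3 and ZNF93 with 176, and ZNF263 had no probe set of its own. ZNF143, an activator that binds the promoters of small nuclear RNA and many protein-coding genes, read 8.70, 8.74 and 8.59 in si-Med23, 9.56, 9.52 and 8.87 in si-Elk1 and 9.70, 9.96 and 10.02 in si-Ctrl (-1.22 ± 0.19, adjusted p = 0.00315). ZNF148 (ZBP-89), a GC-box binding factor, read 7.21, 7.44 and 7.63 in si-Med23, 8.41, 8.43 and 7.78 in si-Elk1 and 8.58, 8.58 and 9.19 in si-Ctrl (-1.36 ± 0.24, adjusted p = 0.00421). Every si-Med23 array lay below every other array for both genes. ZNF281, which binds similar GC-rich sites and represses Nanog in mouse embryonic stem cells, read 10.78, 10.74 and 10.65 in si-Med23, 11.81, 11.99 and 11.03 in si-Elk1 and 11.55, 11.68 and 11.74 in si-Ctrl. ZNF24, a SCAN-domain factor that represses VEGFA, read 8.08, 7.99 and 8.13 in si-Med23, 9.51, 9.37 and 8.41 in si-Elk1 and 9.21, 9.57 and 9.89 in si-Ctrl (-1.49 ± 0.29). ZNF292 fell as well (-1.58 ± 0.38). In ZNF281 si-Elk1 oligos A and B lay above all controls, and in ZNF24 oligo C was the lowest of the si-Elk1 arrays.

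Partners of chromatin enzymes went both ways. ZNF644 and ZNF518A, which bind the H3K9 methyltransferases EHMT1 and EHMT2, had changes of -1.23 ± 0.30 and -1.04 ± 0.35. ZNF644 read 8.05, 7.91 and 8.94 in si-Med23, 9.36, 9.24 and 8.84 in si-Elk1 and 9.69, 9.10 and 9.80 in si-Ctrl. ZNF518A read 6.99, 6.35 and 7.53 in si-Med23, 8.40, 8.40 and 7.34 in si-Elk1 and 7.85, 8.20 and 7.95 in si-Ctrl, and lost its call when any array but si-Med23 oligo C was left out (highest adjusted p = 0.135). Both passed as lower. ZNF592, which with ZMYND8 and ZNF687 forms the Z3 complex, rose (10.08, 10.48 and 10.32 in si-Med23, 9.92, 9.96 and 10.08 in si-Elk1, 9.81, 9.71 and 9.76 in si-Ctrl, 0.53 ± 0.13). ZNF335, a component of histone H3K4 methyltransferase complexes, rose to 8.36, 8.27 and 8.70 in si-Med23, against 7.92, 8.14 and 7.53 in si-Ctrl (0.58 ± 0.19, adjusted p = 0.0406), a call lost without any 1 of the arrays but si-Ctrl replicate 2 (highest adjusted p = 0.135). With poly-A spike scaling the changes of both turned negative. ZNF217, a breast cancer oncogene that works with CoREST and CtBP, ZNF827, which recruits the NuRD complex to telomeres, and ZNF274, which brings SETDB1 to the ends of ZNF genes, did not pass (-0.19, -0.20 and -0.09). ZNF609, a partner of Integrator, and ZNF395 did not pass either (0.45 and 0.36).

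Members that act on RNA, SUMO or ribosomes differed in direction. ZNF451, a SUMO ligase, read 7.60, 7.28 and 8.07 in si-Med23, 8.35, 8.11 and 7.74 in si-Elk1 and 9.20, 9.15 and 9.27 in si-Ctrl (-1.56 ± 0.22, adjusted p = 0.00244). ZNF326, which with CCAR2 forms the DBIRD complex that couples elongation to splicing, read 9.95, 9.86 and 10.02 in si-Med23, 10.43, 10.24 and 9.76 in si-Elk1 and 10.70, 10.62 and 10.96 in si-Ctrl (-0.82 ± 0.18). The 2 knockdowns both lay below the controls for each gene. ZNF622, a cytosolic maturation factor of the large ribosomal subunit, rose, with 11.46, 11.80 and 11.37 in si-Med23, 10.69, 10.49 and 11.07 in si-Elk1 and 10.95, 10.95 and 10.72 in si-Ctrl (0.67 ± 0.18, adjusted p = 0.0201), although poly-A spike scaling made the change negative. Leaving out si-Ctrl replicate 3 or si-Med23 oligo B ended its call (highest adjusted p = 0.0724). ZNF593, another maturation factor of that subunit in yeast, and ZNF598, the ubiquitin ligase that senses collided ribosomes, did not pass (0.32 and 0.19). ZNF830, found with spliceosomes, did not pass (-0.11).

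In si-Elk1 against si-Ctrl, few expressed ZNF genes changed. Of the 230, 5 fell (2.17%) and 3 rose (1.30%), beside 1.19% lower and 3.07% higher among all genes tested and 1.45% and 2.8% among genes at the same control level. Medians were -0.05 for the ZNF genes, 0.05 for all genes tested and 0.01 for genes at that level. ZNF462, a gene of neurodevelopment, read 7.55, 7.43 and 6.14 with the si-Elk1 oligos A, B and C, against 8.62, 8.77 and 8.66 in si-Ctrl (-1.64 ± 0.33, adjusted p = 0.0327). Its si-Med23 signals were 8.36, 8.59 and 8.40, and it was the only gene of the 8 that did not pass in si-Med23 (-0.23). All its si-Elk1 arrays lay below all the others, oligo C by the most. ZNF367 read 10.11, 10.11 and 9.64 in si-Med23, 9.50, 9.88 and 9.26 in si-Elk1 and 10.86, 10.71 and 10.83 in si-Ctrl (-1.26 ± 0.19, adjusted p = 0.0146). ZNF451 fell by 1.14 ± 0.22, and ZNF267 read 7.43, 7.40 and 7.68 in si-Med23, 7.96, 7.72 and 7.66 in si-Elk1 and 8.86, 8.31 and 8.89 in si-Ctrl (-0.91 ± 0.18, adjusted p = 0.0329). ZNF529 read 8.10, 7.84 and 8.06 in si-Med23, 8.56, 8.26 and 7.79 in si-Elk1 and 9.05, 9.03 and 9.20 in si-Ctrl (-0.89 ± 0.19). These 4 fell in si-Med23 too, with changes there of -0.85, -1.56, -1.19 and -1.09, over the same control arrays.

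The 3 rises in si-Elk1 were ZNF503 (0.87 ± 0.14, adjusted p = 0.0166), ZNF580 (0.67 ± 0.14, adjusted p = 0.0385) and ZNF513 (0.62 ± 0.10, adjusted p = 0.0193). ZNF513, a gene mutated in a retinal dystrophy, read 8.10, 8.25 and 8.25 in si-Med23, 8.30, 8.28 and 8.38 in si-Elk1 and 7.69, 7.71 and 7.71 in si-Ctrl. All 3 rose in si-Med23 too, no gene passed in opposite directions, and ZNF513 was at -0.01 in si-Elk1 with poly-A spike scaling. The si-Elk1 arrays did not overlap si-Ctrl for 61 of the 230 genes (26.5%), including all 8 called, beside 36.3% of all genes tested and 39.5% of genes at that level. Each of the 8 lost its call when some single array was left out, with counts between 0 and 4 lower and 0 and 3 higher. Without si-Elk1 oligo C, ZNF451, ZNF267, ZNF529 and ZNF580 lost theirs, which left 2 lower and 2 higher. Without si-Ctrl replicate 1 or 3 limma called 0 in either direction, with 38 and 27 genes at an unadjusted p under 0.05. With all 9 arrays 47 genes had such a p. Of all genes tested, 0.127% were lower and 1.05% higher without si-Ctrl replicate 1, and 0.127% and 0.737% without replicate 3. Without si-Elk1 oligo C these shares were 0.658% and 1.44%. Scaling moved the split to 2 higher and 8 lower with median centring, 0 higher and 7 lower with the hybridisation controls (62 genes at such a p in limma) and 0 higher and 61 lower with the poly-A spikes (132). The shares of all genes tested moved as well. They were 1.89% higher and 2.60% lower with median centring, 1.32% and 2.05% with the hybridisation controls, and 0.571% and 20.2% with the poly-A spikes.

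The contrast of si-Med23 with si-Elk1 takes its fold changes from no control array, although the controls enter the spread of the fit and so the p-values. Of the 230 genes 33 (14.3%) were lower in si-Med23 and 17 (7.39%) higher. The shares were 12.2% lower and 9.54% higher among all genes tested, and 12.2% and 11.4% among genes at the same control level, so the lower share lay near that of other genes. The direction of the split turned with the scaling: 76 were higher and 8 lower with median centring and 22 higher and 15 lower with quantile normalisation, while 5 were higher and 76 lower with hybridisation control scaling. The shares of all genes tested moved too. They were 37.3% higher and 4.38% lower with median centring, 9.65% and 9.22% with quantile normalisation, and 2.85% and 31.3% with hybridisation control scaling. The median was -0.05, beside -0.03 for all genes tested and 0.02 for genes at that level. Arrays did not overlap for 86 genes (37.4%), among them 49 of the 50 that passed, beside 38% of all genes tested and 40.1% of genes at that level. With only the 6 arrays of both knockdowns in the fit, 9 were lower and 7 higher. The counts also depended on single arrays. Without si-Elk1 oligo C 54 were lower (23.5%) and 24 higher (10.4%), beside 19.4% and 16.2% of all genes tested. Without si-Elk1 oligo A or B 6 were lower (2.61%) and 4 higher (1.74%). Of all genes tested 3.28% were lower and 2.81% higher without oligo A, and 3.92% and 3.19% without oligo B. Leaving out si-Med23 oligo A, B or C gave 15, 12 and 24 lower and 10, 9 and 10 higher. The shares of all genes tested were then 6.97%, 5.94% and 8.95% lower and 5.94%, 4.66% and 5.92% higher.

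ZNF527 and ZNF665, whose values stand above, had the lowest differences at -1.84 ± 0.33 and -1.80 ± 0.31 (adjusted p = 0.0106 and 0.00930). Both kept their calls when any single array was left out. ZNF271P, a transcribed pseudogene, read 6.01, 5.69 and 6.62 in si-Med23, 7.91, 7.58 and 6.98 in si-Elk1 and 7.44, 7.69 and 7.86 in si-Ctrl (-1.38 ± 0.29 between the knockdowns). ZNF770 (-1.36 ± 0.30) and ZNF765 (-1.17 ± 0.29) followed. ZNF280C read 6.55, 5.88 and 6.34 in si-Med23 and 7.45, 7.94 and 6.98 in si-Elk1 (-1.20 ± 0.25). Each of these 4 lost its call without si-Elk1 oligo A or B (highest adjusted p between 0.0571 and 0.0763), and ZNF770 and ZNF765 also without si-Med23 oligo A or B. In each of the 6 genes the si-Med23 arrays lay below all si-Elk1 arrays.

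The 6 highest differences mixed genes that stood low in si-Elk1 with genes that stood high in si-Med23. ZNF462 was higher in si-Med23 by 1.41 ± 0.33 (adjusted p = 0.0219), with the arrays given above, and lost its call without si-Med23 oligo B (0.0639). ZNF787 read 8.38, 8.54 and 8.40 in si-Med23, 7.58, 6.91 and 7.75 in si-Elk1 and 8.12, 8.07 and 8.17 in si-Ctrl (1.03 ± 0.20, adjusted p = 0.0137). ZNF416 read 8.80, 8.72 and 8.77 in si-Med23, 7.58, 7.79 and 7.86 in si-Elk1 and 8.38, 8.17 and 8.20 in si-Ctrl (1.02 ± 0.12, adjusted p = 0.00442). For both, si-Ctrl lay between the knockdowns, and both kept their calls when any single array was left out. ZNF488, a regulator of oligodendrocyte differentiation in mice, read 8.58, 8.54 and 8.32 in si-Med23, 7.37, 7.14 and 7.98 in si-Elk1 and 8.31, 7.22 and 8.07 in si-Ctrl (0.99 ± 0.30, adjusted p = 0.0487), and its controls ran from the si-Elk1 range to just below si-Med23. ZNF740 (0.89 ± 0.18) and ZNF335 (0.82 ± 0.19) completed the 6. ZNF488 lost its call when any array but si-Elk1 oligo C was left out (highest adjusted p = 0.150), ZNF740 without si-Elk1 oligo A or B, and ZNF335 without either of these or si-Med23 oligo C. With poly-A spike scaling limma called 0 genes higher in si-Med23 and 142 lower, and 155 had an unadjusted p under 0.05. Of all genes tested 0.365% were higher and 58.9% lower with that scaling.

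Among the 66 genes lower in si-Med23, oligo C of si-Elk1 was the lowest si-Elk1 array in 58 (87.9%). It was also lowest in 84.2% of all 2462 genes called lower in si-Med23 and in 88.4% of those at the same control level. The 66 genes lay below the mean of the controls by a median log2 difference of -0.87 with si-Elk1 oligo C, -0.23 with oligo A and -0.24 with oligo B. The medians of si-Med23 oligos A, B and C were -1.19, -1.24 and -1.04. The 66 genes were selected as low in si-Med23 over these controls, so the si-Med23 medians lie low by that choice. The shared controls can also lower the si-Elk1 medians, so si-Elk1 oligo C is not placed against the si-Med23 oligos. All 2462 genes called lower had medians of -0.18, -0.19 and -0.73 with si-Elk1 oligos A, B and C. The MED23 signal of si-Elk1 oligo C, 8.18, was below those of the other si-Elk1 oligos, 8.87 and 9.02. Among the 26 genes higher in si-Med23, the medians with the si-Elk1 oligos A, B and C were 0.19, 0.14 and 0.21, and oligo C was the highest si-Elk1 array in 17. It was also highest in 1971 of all 2561 genes called higher in si-Med23, whose medians with these oligos were 0.20, 0.18 and 0.44. The genes called higher were likewise selected over the same controls.

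**Figure D3:**
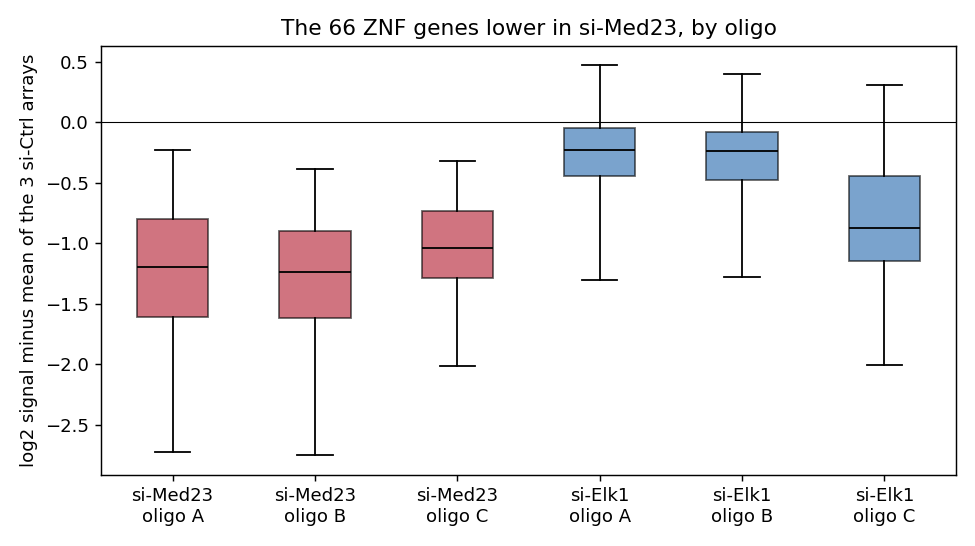
Difference of each array's log2 signal from the mean of the 3 si-Ctrl arrays (y axis) for the 66 expressed ZNF genes lower in si-Med23, by oligo (x axis); boxes give the quartiles with the median line and whiskers the full range. The median of si-Elk1 oligo C is -0.87, while those of si-Elk1 oligos A and B are -0.23 and -0.24. The genes were selected as low in si-Med23 over these controls, so the si-Med23 boxes lie low by that choice.

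Position was described by chromosome and by neighbours. Of the 83 genes on chromosome 19, 26 fell (31.3%) and 7 rose (8.43%) in si-Med23. Of the 147 on other chromosomes 40 fell (27.2%) and 19 rose (12.9%). Among all genes at the same control level 22.7% fell and 22.9% rose. In the RefSeq order 74 of the 230 genes lay next to another of them, in 28 runs with 46 neighbouring pairs. In 4 pairs both genes fell in si-Med23, in 1 both rose and in 3 the neighbours passed in opposite directions. The remaining 38 pairs had at most 1 gene that passed. A run of 4 on chromosome 12 held ZNF605, ZNF26, ZNF84 and ZNF140, and all 4 fell, ZNF26 and ZNF140 by 0.74 and 0.67. On chromosome 18 ZNF271P and ZNF24 fell together, and on chromosome 16 ZNF764 and its neighbour ZNF688 rose (1.01 and 0.57). ZNF875 rose (0.56) between ZNF383 (-0.61) and ZNF527 (-2.03), and on the X chromosome ZNF81 rose beside ZNF182, which fell (-1.04). Another probe set of ZNF81 fell (-1.34), so that opposite pair is uncertain. None of the 7 genes of the longest run, on chromosome 7, passed. These pairs and runs were chosen after their values were seen. Neighbouring pairs of other genes were not counted, so the pair and run counts have no share of all genes beside them. ZNF26, ZNF383, ZNF688 and ZNF875 lost their calls when some single array was left out (highest adjusted p = 0.0511, 0.142, 0.111 and 0.0786), and with poly-A spike scaling the changes of ZNF688, ZNF875, ZNF764 and ZNF81 turned negative.

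The share of genes called lower was larger among longer genes, for ZNF genes and for others. The genomic span of the gene in RefSeq had a Spearman correlation of -0.31 with the log2 fold change in si-Med23 across the 230 genes and of -0.32 across 9748 genes at the same control level. In si-Elk1 the correlations were -0.23 and -0.24, over the same control arrays. They were -0.22 and -0.25 for si-Med23 against si-Elk1. Without oligo C of si-Elk1, which was left out after seeing the data, they were -0.13 and -0.10 in si-Elk1, and -0.26 and -0.30 for si-Med23 against si-Elk1. Genes are not independent replicates, and all share the 9 arrays. Among the 77 shortest ZNF genes, with spans up to 15945 bases, 15.6% fell and 18.2% rose in si-Med23. Of the 76 of middle span 30.3% fell and 7.89% rose, and of the 77 longest, with spans over 30519 bases, 40.3% fell and 7.79% rose. All genes at that level within the same bounds, ZNF genes included, gave 9.25%, 18.8% and 32.5% lower and 33.7%, 22.7% and 16.4% higher, from short to long. All 5 genes lower in si-Elk1 belonged to the 77 longest, and each of the 5 lost its call when some single array was left out. Among all genes at the same control level, 0.862%, 1.38% and 1.83% were lower in si-Elk1, from short to long.

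**Figure D4:**
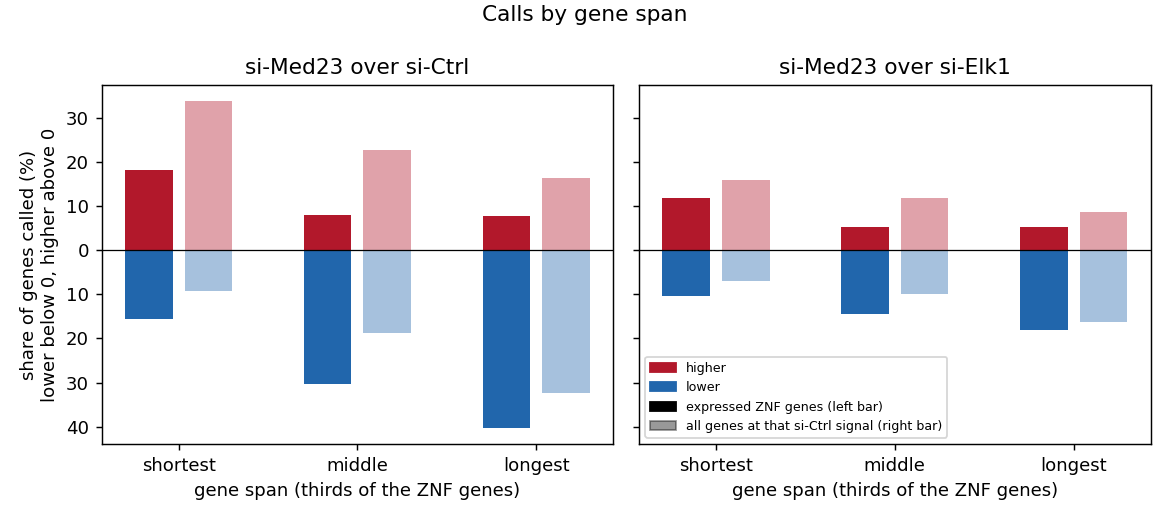
Share of genes called higher (above 0) and lower (below 0), in percent, by span of the gene (x axis, bounds set to split the 230 ZNF genes into 77, 76 and 77), for si-Med23 over si-Ctrl (left) and si-Med23 over si-Elk1 (right). Dark bars are the expressed ZNF genes and pale bars all genes at the same control level; lower calls reach 40.3% in the longest ZNF genes and 15.6% in the shortest.

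The presence of the ETS core was set beside the fold changes. The 84 genes with the core had a median log2 fold change of -0.02 in si-Elk1, with 1 higher and 1 lower, and the 110 without it -0.05, with 2 higher and 3 lower. In si-Med23 the medians were 0.04 with the core, where 15 rose and 22 fell, and -0.09 without it, where 9 rose and 35 fell. Among all genes at the same control level, 23.6% with the core rose and 24.2% fell in si-Med23, beside 22.6% and 22.7% without it, and 1.27% rose and 0.914% fell in si-Elk1, beside 2.76% and 1.61% without it. Between the knockdowns, 13 of the 84 genes with the core were higher in si-Med23 and 12 lower, and 2 of the 110 without it were higher and 15 lower. Among all genes at the same control level 11.0% with the core and 11.3% without it were higher in that contrast, and 12.3% and 11.7% lower.

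**Figure D5:**
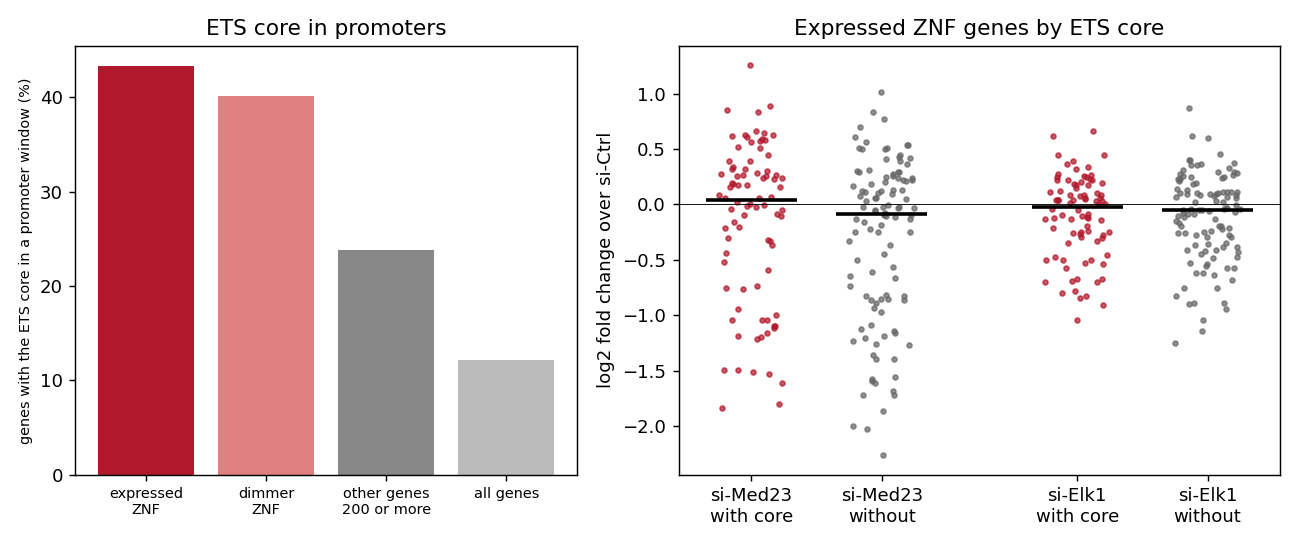
Left, share of genes with the ETS core in a promoter window, in percent: expressed ZNF genes, dimmer ZNF genes, other genes with an si-Ctrl signal of 200 or more, and all genes. Right, log2 fold change over si-Ctrl of each expressed ZNF gene with or without the core in si-Med23 and si-Elk1, with the median as a line; the medians lie between -0.09 and 0.04.

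Other probe sets of the same genes mostly moved the same way. For 121 of the 230 genes 173 further probe sets passed the filter on dim signals. Of 82 that belong to genes called in si-Med23, 69 had the same sign. ZNF81 is the exception that passed, with its main probe set higher (0.86) and another lower (-1.34, adjusted p = 0.00311 over all probe sets). The other one read 6.31, 6.61 and 6.77 in si-Med23, 7.67, 7.88 and 7.27 in si-Elk1 and 7.89, 7.82 and 8.01 in si-Ctrl, so the direction of ZNF81 is uncertain. ZNF207 did not pass by its 2 brightest probe sets (-0.08 and -0.07), whereas 4 dimmer ones fell by 1.69 to 2.32. One of these read 6.18, 6.20 and 6.77 in si-Med23, 8.64, 8.28 and 7.80 in si-Elk1 and 8.83, 8.92 and 8.35 in si-Ctrl. Of the genes not called in si-Med23, 69 had further probe sets above the filter, and in 14 of them one passed as lower and in 10 one passed as higher. Fingers repeat between ZNF genes, and 61 of the 230 rest on probe sets whose names mark probes that may match several transcripts (22 ending in _x_at, 39 in _s_at), so their signals may be shared. Of these 61, 17 fell (27.9%) and 5 rose (8.20%) in si-Med23, and of the other 169, 49 fell (29.0%) and 21 rose (12.4%). Among all genes at the same control level, not split by probe set name, 22.7% fell and 22.9% rose. Further probe sets and their signs were not counted for other genes.

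Related families at the same control level held genes that fell too. Of 29 ZBTB genes, which pair C2H2 fingers with a BTB domain, 12 fell and 2 rose in si-Med23, with a median of -0.36, beside 22.7% lower, 22.9% higher and a median of 0.10 among all genes at that level. ZBTB10 read 5.79, 6.54 and 6.27 in si-Med23, 8.03, 7.72 and 6.90 in si-Elk1 and 8.18, 7.98 and 8.18 in si-Ctrl (-1.91). ZBTB21 read 7.77, 8.16 and 8.06 in si-Med23, 8.43, 8.89 and 8.20 in si-Elk1 and 9.48, 9.51 and 9.46 in si-Ctrl (-1.48). In ZBTB21 both knockdowns lay below the controls, and in ZBTB10 oligo C was again the lowest si-Elk1 array. Of 9 ZFP genes 3 fell and 1 rose (ZFP36, an RNA-binding protein, has fingers of another type), of 11 ZSCAN genes 2 fell and 1 rose, and of 4 ZKSCAN genes 1 fell.

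Genes of the KRAB silencing machinery moved in both directions. Of 15 of its genes tested 3 fell and 2 rose in si-Med23, beside 19.5% lower and 20.3% higher among all genes tested. TRIM28 and SETDB1 are named for their role and CHD3 to complete the rises, all chosen after their values were seen. TRIM28, the corepressor itself, read 13.22, 13.30 and 13.01 in si-Med23, 12.98, 12.94 and 13.25 in si-Elk1 and 12.94, 13.08 and 12.87 in si-Ctrl (0.21, adjusted p = 0.242). SETDB1 did not pass (-0.34, adjusted p = 0.223). CBX3, an HP1 protein, read 11.77, 11.54 and 11.67 in si-Med23, 12.85, 12.71 and 12.07 in si-Elk1 and 13.68, 13.64 and 13.68 in si-Ctrl. It fell in si-Med23 (-2.01, adjusted p = 0.00184) and in si-Elk1 (-1.13, adjusted p = 0.0207), and the 3 groups did not overlap, although the si-Elk1 call was lost without any 1 of the controls (highest adjusted p = 0.0798). The remodeller gene SMARCAD1 (-1.25) and the deacetylase gene HDAC2 (-0.87) fell, and CHD4 (0.52) and CHD3 (0.43), of the NuRD complex, rose. Of 4 HUSH genes, TASOR (-1.66) and MPHOSPH8 (-1.02) fell and MORC2 rose (0.47). Of 9 partners of single ZNF proteins, CCAR2, the partner of ZNF326, rose (1.17), with 10.64, 10.54 and 10.57 in si-Med23, 9.34, 9.25 and 9.24 in si-Elk1 and 9.40, 9.54 and 9.31 in si-Ctrl. CTBP1 rose (0.49), and RCOR1 (-0.62) and CTBP2 (-0.35), which work with ZNF217 as CTBP1 does, fell. CHD3, MORC2, CTBP1 and CTBP2 lost their calls when some single array was left out (highest adjusted p = 0.142, 0.0585, 0.0637 and 0.101). The mean of all its probe sets gave RCOR1 0.43, and with poly-A spike scaling the changes of CHD3, CHD4, MORC2, CCAR2 and CTBP1 turned negative.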

How the data were processed

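The labels gave the group of each of the 9 arrays, 3 per group, of A549 cells. The authors deposited linear intensities of 54675 probe sets. RMA and MAS5 are named in the submitters' processing notes, neither with a version nor with what it was used for. On every array the trimmed mean was 500.1, and such a common scaling removes any change in total RNA. A genome build is not given here by any source.

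The platform annotation gave the gene of each probe set. Of these, 41097 name 1 gene, and 61 that name a ZNF gene together with others were left out, as were 62 control probe sets. All 230 members of the group were found by gene ID in the RefSeq gene table of GRCh38.p14, which gave chromosomes, order and spans. No protein sequences were used, so KRAB, SCAN and finger counts were not made. Signals were analysed as log2(value + 1), which slightly lowers the fold changes of dim genes. Genes whose probe set had a mean under the median of all probe sets (log2 6.05, or 65.4 as a signal) were dropped, leaving 12616 genes and all 230 ZNF genes. Two-sided tests came from lmFit and eBayes of limma 3.58.1 (R 4.3.3), with all 9 arrays in 1 fit and no block, with Benjamini-Hochberg adjustment over the genes tested and a threshold of 0.05. The fit was tested on simulated data. SEs are those of limma, n = 3 arrays per group. Further probe sets were tested in a fit of all probe sets above the same filter.

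The genes and lists were chosen with earlier results of these data known. The genes named are the targets, the 10 brightest, the 3 nearest each side of the level, the largest changes that passed without overlap (10 each way in si-Med23, 6 in the other contrasts), a list by role, up to 4 genes of each partner list, genes whose probe sets passed in opposite directions, and others said to be chosen later. Replicate numbers and oligo letters did not pair the samples: deviations from group means correlated between same-numbered arrays at -0.18 to 0.05. Alternatives were other normalisations and scalings, no filter, a pseudocount of 16, other choices of probe set, a block, fewer arrays, another level for the group, and signals raised to the filter level.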

Additional observations from a re-analysis of the deposited data

Results flagged for a closer look

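The probe sets for poly-A transcripts, spiked into the RNA and used in no comparison of genes, read above the controls in both knockdowns. Their mean log2 signal over 27 probe sets was 8.64, 8.63 and 8.42 in si-Med23, 7.91, 7.40 and 8.06 in si-Elk1 and 6.92, 7.39 and 7.18 in si-Ctrl. The differences over si-Ctrl were 1.403 in si-Med23, where no array overlapped a control, and 0.6256 in si-Elk1, where the value of oligo B, 7.40, lay just above the highest control. Groups of 3 arrays were not searched for single outlying values.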

How the results depend on the processing

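In si-Med23 against si-Ctrl, where 26 genes were called higher and 66 lower, the counts were 64 higher with median centring, 0 higher (224 genes at an unadjusted p under 0.05 in limma) and 223 lower with poly-A spike scaling, 2 higher and 121 lower with hybridization control scaling, 14 higher without a filter, 16 higher with the mean over a gene's probe sets, and 14 higher and 36 lower at a level of 400. At a level of 400 there were 129 genes, 10.9% of them higher and 27.9% lower, beside 11.3% and 28.7% of the 230. Averaging probe sets left 206 genes, here and in the other comparisons. Leaving out 1 array gave 17 to 20 higher and 52 to 61 lower, and the replicate block 20 and 60. In si-Elk1 against si-Ctrl, where 3 were called higher and 5 lower, the counts were 8 lower with median centring, 0 higher (132 at an unadjusted p under 0.05) and 61 lower with poly-A spike scaling, 0 higher (62 at such a p) with hybridization control scaling, 0 and 0 without a filter (34 at such a p), 1 and 3 with all probe sets averaged, 1 and 1 with the replicate block, and 2 lower with only the 6 arrays compared. Leaving out 1 array gave 0 to 3 higher and 0 to 4 lower. In si-Med23 against si-Elk1, where 17 were called higher and 33 lower, the counts were 15 lower with quantile normalisation, 76 higher and 8 lower with median centring, 0 higher (155 at such a p) and 142 lower with poly-A spike scaling, 5 and 76 with hybridization control scaling, 4 and 6 without a filter, 9 higher with probe sets averaged, 7 and 12 with the replicate block, 7 and 9 with only the 6 arrays compared, and 8 and 18 at a level of 400. Of the 129 genes at a level of 400, 6.20% were higher and 14.0% lower, beside 7.39% and 14.3% of the 230. Leaving out 1 array gave 4 to 24 higher and 6 to 54 lower. The shares of all genes tested moved with the settings as well. With median centring 37.8% were higher and 13.3% lower in si-Med23 against si-Ctrl, and 37.3% and 4.38% in si-Med23 against si-Elk1. With poly-A spike scaling 89.8%, 20.2% and 58.9% were lower in the 3 comparisons, in the order above. With hybridization control scaling 41.3%, 2.05% and 31.3% were lower. Of the 92, 8 and 50 genes called in the 3 comparisons, 61, 0 and 7 kept their call whichever array was left out. Poly-A spike scaling turned changes in si-Med23 against si-Ctrl negative for CCAR2 (-0.24), CHD3 (-0.98), CHD4 (-0.88), CTBP1 (-0.91), MORC2 (-0.94), TRIM28 (-1.19), ZNF335 (-0.83), ZNF395 (-1.04), ZNF503 (-0.71), ZNF511 (-1.27), ZNF512 (-1.22), ZNF552 (-0.52), ZNF580 (-0.15), ZNF592 (-0.87), ZNF593 (-1.08), ZNF598 (-1.21), ZNF609 (-0.96), ZNF622 (-0.74), ZNF629 (-0.63), ZNF688 (-0.84), ZNF70 (-0.57), ZNF703 (-0.63), ZNF71 (-0.57), ZNF740 (-0.51), ZNF764 (-0.39), ZNF81 (-0.55) and ZNF875 (-0.84). It did so in si-Med23 against si-Elk1 for ZNF207 (-0.64), ZNF274 (-0.77), ZNF511 (-0.60), ZNF593 (-0.68) and ZNF81 (-0.18), and in si-Elk1 against si-Ctrl for ZNF513 (-0.00806). Hybridization control scaling turned CHD3 (-0.070), CTBP1 (-0.00242) and MORC2 (-0.0308) negative in si-Med23 against si-Ctrl. The mean of all probe sets gave 0.43 for RCOR1 in si-Med23 against si-Ctrl and -0.80 for ZNF207 in si-Med23 against si-Elk1, where dropping the _x_at and _s_at probe sets gave -1.86. The signs after spike and control scaling follow from the constant shifts given in the report, fewer calls without a filter came with 19775 genes tested, and the causes of the other differences were not tested. The number of arrays, 3 per group, limits the precision. Raising dim signals to the filter level was tried after seeing the data.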
